A study of Mus musculus with 4 samples.

Results

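The genes described here encode pre-mRNA splicing factors and were taken by symbol: those that begin with Prpf and a digit, Sf3a or Sf3b, Snrp followed by one of the letters a to g or n, Srsf or Sfrs and a digit, and Hnrnp or Hnrp. The rule found 113 probes of 65 genes among 55677 probes, of which 33323 carried a gene symbol. The 65 genes fall into 5 classes: 13 PRPF genes, 8 SF3 genes, 12 SR protein genes (Srsf or Sfrs), 12 Snrp genes and 20 hnRNP genes. Membership was defined by symbol alone, but the family was selected on its knockout and control values, with results of the same comparison known, so the differences given below are a description, and no test was made over the group or its classes.

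Gene expression was measured on 4 Agilent arrays in 1 colour (Cy3). The 2 arrays labelled Ezh1 knockout carried RNA of sorted LSK cells from C57Bl/6J mice with a knockout of Ezh1, a catalytic subunit of the histone H3 lysine 27 methyltransferase complex PRC2. The 2 control arrays carried RNA of LSK cells from control mice of the same strain. LSK stands for lineage-negative cells with Sca-1 and c-Kit on their surface, among which the blood stem cells are found. The deleted part of Ezh1, the genotype of the controls and the number of mice behind an array are not stated by the labels, and p-values therefore reflect the spread among these arrays alone, whose source may be technical. All samples were amplified from 0.1 to 5 ng of RNA, and the labels list different cycle numbers without tying each to a sample.

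Splicing removes introns from pre-mRNA in the spliceosome, which is built from small nuclear RNAs and their proteins. The U1 particle binds the 5′ splice site and the U2 particle the branch point, after which the U4/U6.U5 tri-snRNP joins and the catalytic centre forms. SR proteins and hnRNP proteins bind the pre-mRNA and shift which sites are used. In human myeloid disease, SF3B1, SRSF2, U2AF1 and ZRSR2 are recurrently mutated, which makes splicing of interest in blood stem and progenitor cells.

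The arrays differed mostly at the dim end. The 75th percentile of intensity, to which each array was scaled, was 1095 and 1690 on the knockout arrays, against 1594 and 1531 on the controls, while the 20th percentile, taken as the detection limit, was 22.8 and 87.3 on the knockout arrays, against 12.4 and 57.6 on the controls. Across kept probes, which are not independent replicates, Pearson's r was 0.934 between the knockout arrays, 0.910 between the controls and 0.845 to 0.951 between arrays of different groups. Ezh1 itself did not check the labels: its brightest probe stood at 0.92 and 1.14 on the knockout arrays, against 0.74 and 0.78 on the controls, in log2 units relative to the scaling percentile. The log2 fold changes of its 4 probes ranged from -1.15 to 0.27. The lowest came from its dimmest probe, at -2.38 and -4.22 on the knockout arrays, against -1.95 and -2.35 on the controls, with separate arrays. On knockout replicate 2 the intensity of that probe was 90.7, just above the detection limit of 87.3. Markers of the labelled cells were present, with Kit at 2.63 and 2.29 on the knockout arrays, against 3.12 and 2.68 on the controls, and Ly6a, which encodes Sca-1, at 1.76 and 0.71 on the knockout arrays, against 0.39 and 0.70 on the controls.

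Each splicing gene was read through its brightest kept probe, and every level below is a log2 intensity minus that array's 75th percentile, so 0 is the percentile itself. Levels are compared within a probe, not between genes. All 65 genes passed the detection filter, and 64 were detected on all 4 arrays. The exception was Snrpn, which was detected on 1 of 2 knockout arrays and passed through the controls. For 3 genes the array carries an older symbol: Sfrs18 is now Pnisr, Hnrpdl is Hnrnpdl and Hnrpll is Hnrnpll.

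Levels of most splicing genes were slightly lower on the knockout arrays, but no gene passed the test. The log2 fold change, knockout over control, was below 0 for 43 of 65 genes (66.2%), against 47.9% of all 19287 genes with a kept probe and 59.7% of the 7479 genes whose mean lay above the scaling percentile. The median over the 65 genes was -0.15, against 0.03 over all genes and -0.09 over those above the scaling percentile. The differences were small: 7 genes were beyond 0.5 on the log2 scale in either direction and 2 beyond 1. The 95% intervals of 63 genes held 0, and intervals reached a median of 0.81 to either side of the estimate, with 0.70 the smallest.

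With limma, 0 of the 65 genes had an adjusted p under 0.05 over all 43759 kept probes, and the lowest adjusted p was 0.780. The background was the same: 0% of the kept probes were called, and 5.74% (2513 probes) had an unadjusted p under 0.05. At that unadjusted level 2 splicing genes were lower (Prpf4 and Snrpn) and 0 were higher, where 1.20% of all genes were lower and 3.51% higher. Snrpn passed the detection filter only through the controls, where it is higher, so its place in this count supports nothing. With an offset of 50 added to the intensities 0 splicing genes were at that level, where 1.16% of all genes were lower and 4.32% higher. With 1 array left out, the lone array of its group is assumed to vary like the other group, and 0 splicing genes were at that level in any of the 4 runs, where 0.233% to 0.736% of all genes were lower and 1.02% to 6.86% higher. A per-probe equal-variance test also gave 0 adjusted calls among the kept probes, with 8 splicing genes lower and 0 higher at an unadjusted p under 0.05, where 3.03% of all genes were lower and 3.28% higher. Both knockout arrays lay below both controls for 21 of the 65 genes, against 21.0% of all genes, and above both controls for 6, against 17.5% of all genes.

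The classes were compared by their medians. In the PRPF class 11 of 13 genes were lower on the knockout arrays, with a median log2 fold change of -0.40 and quartiles of -0.49 and -0.11. The SR class had 9 of 12 lower and a median of -0.24, and the SF3 class had 7 of 8 lower and a median of -0.19. The Snrp class was evenly split, 6 of 12 lower with a median of -0.02, and so was the hnRNP class, 10 of 20 lower with a median of -0.01. The order rests on the choice of probe: with the mean over a gene's kept probes the median was -0.31 for SR, -0.28 for PRPF, -0.20 for SF3, -0.11 for hnRNP and 0.0071 for Snrp. The arrays of the groups were separate, lower in the knockout, for 5 PRPF, 3 SF3, 4 SR, 4 Snrp and 5 hnRNP genes. These counts ran from 25% of hnRNP to 38.5% of PRPF genes, against 21.0% of all genes and 25.8% of those above the scaling percentile. Snrpn, which passed the detection filter only through the controls, is among the 4 Snrp genes. Arrays were separate and higher for 1, 0, 1, 1 and 3 genes of the same classes, against 17.5% of all genes.

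Control replicate 1 had the highest levels of these genes. Around each gene's own mean, the median over the PRPF class was -0.05 and -0.29 on the knockout arrays, against 0.33 and 0.00 on the controls. In the SR class it was 0.01 and -0.23 on the knockout arrays, against 0.28 and -0.05 on the controls. The control replicate 1 median was above those of the other 3 arrays in every class. The 7479 genes above the scaling percentile showed the same, with 0.04 and -0.11 on the knockout arrays, against 0.15 and -0.05 on the controls. The trait is therefore not particular to splicing genes. Over all genes the medians were -0.01 and 0.02 on the knockout arrays, against 0.02 and 0.03 on the controls. Without control replicate 1, the median log2 fold change was -0.19 for PRPF, -0.06 for SF3, -0.05 for SR, 0.09 for Snrp and 0.13 for hnRNP. In that setting 32 of the 65 genes were lower. Without knockout replicate 2 the PRPF median was -0.20, and without control replicate 2 the median over all 65 genes was -0.35.

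**Figure D1:**
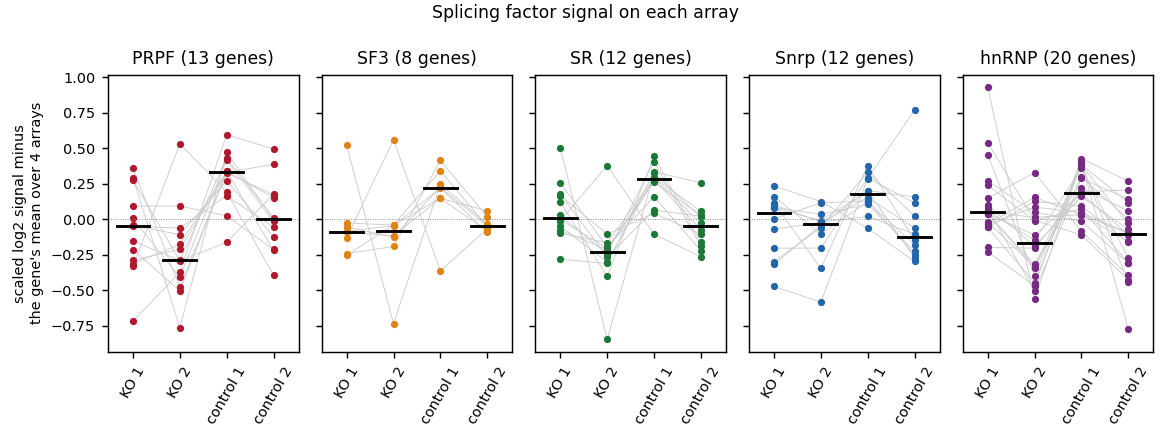
Scaled log2 signal of each splicing gene minus that gene's mean over the 4 arrays (y axis), by class and array (x axis, knockout arrays at left); a point is 1 gene, grey lines join a gene's arrays and black bars are class medians. The bar of control replicate 1 is the highest in each class, at 0.33 for PRPF.

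**Figure D2:**
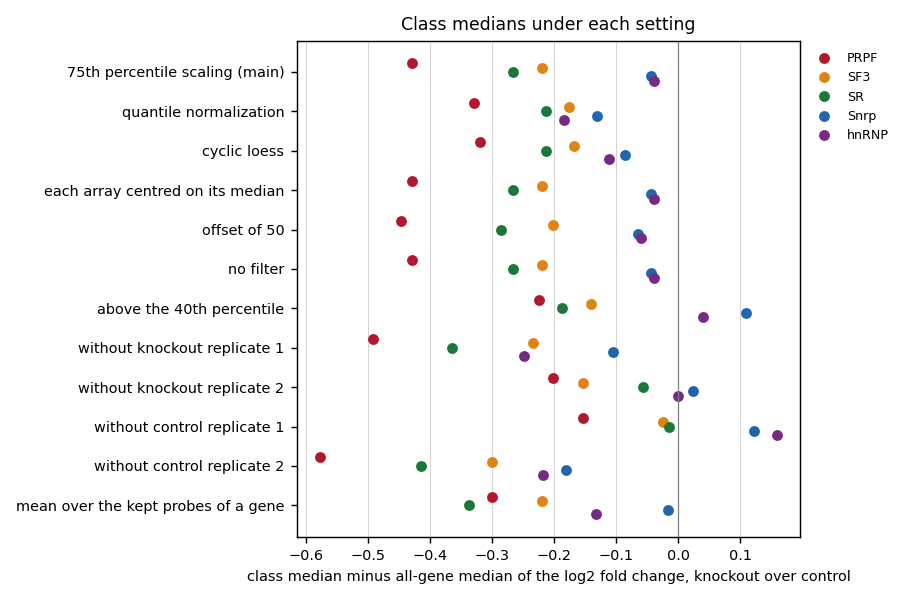
Median log2 fold change of each class, knockout over control, minus the median over all genes, under each processing setting (rows). PRPF, SF3 and SR points lie left of 0 in every row, and Snrp and hnRNP points fall on both sides of 0.

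Replicate 1 was often the higher array in both groups. Replicate 1 was above replicate 2 on the knockout arrays for 46 of 65 genes and on the controls for 60, and in both groups for 42 (64.6%), against 38.4% of all genes and 59.1% of those above the scaling percentile. The share was highest in the SR class, 11 of 12 genes, and in the hnRNP class, 15 of 20, while it was 6 of 13 for PRPF, 4 of 8 for SF3 and 6 of 12 for Snrp. The larger of the replicate gaps exceeded the difference between the groups for 45 of 65 genes (69.2%), against 73.3% of all genes. The labels do not say what the replicate numbers share.

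**Figure D3:**
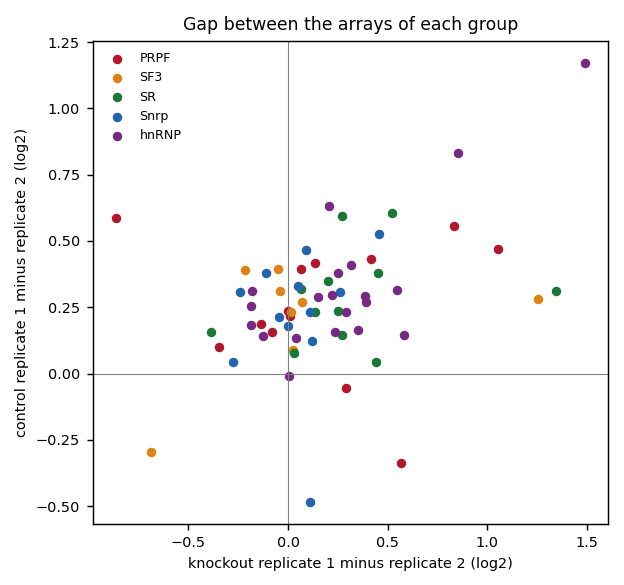
Level on replicate 1 minus level on replicate 2, in log2 units, for the knockout arrays (x axis) and the controls (y axis), 1 point per splicing gene, coloured by class. Of 65 genes, 42 lie at the upper right, where replicate 1 was higher in both groups.

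To set these genes beside their promoters, the 250 bases before the transcript start were searched in RefSeq sequences of mouse build GRCm38.p6, which held 56 of the 65 genes. A CCAAT box (CCAAT or ATTGG) was found before 27 of 56 genes (48.2%), against 34.5% of all 27025 promoters. The ETS motif CCGGAAGT, on either strand, was found before 7 (12.5%), against 2.93% of all, and the NRF1 motif before 8 (14.3%), against 3.86%. TATAAA stood before 5 (8.93%), against 13% of all, the E-box CACGTG before 5 (8.93%), against 6.05%, and the YY1 motif AAGATGGC before 1 (1.79%), against 1.59%. Motifs may overlap, and a match describes the letters and not a bound site. The set of all promoters was not limited to genes detected here, while all splicing genes passed the detection filter. Shares among detected genes were not computed, so the motifs cannot be called particular to splicing genes. The 120 bases just before the start are shown for the 4 lowest and the 2 highest genes that had separate arrays and a single promoter entry, to show the sequence behind genes that lay at opposite ends. They are Prpf4 (chr4:62408663-62408782, plus strand), Hnrnph2 (chrX:134601059-134601178, plus), Srsf5 (chr12:80945379-80945498, plus), Hnrnpu (chr1:178337816-178337935, minus), Srsf12 (chr4:33209152-33209271, plus) and Hnrnpul1 (chr7:25754760-25754879, minus). Each is written 5′ to 3′ on the strand of its gene, with capitals marking CCAAT boxes, ETS motifs and the YY1 motif on either strand.
Prpf4: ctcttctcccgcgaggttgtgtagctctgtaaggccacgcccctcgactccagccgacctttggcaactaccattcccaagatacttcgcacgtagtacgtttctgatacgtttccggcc
Hnrnph2: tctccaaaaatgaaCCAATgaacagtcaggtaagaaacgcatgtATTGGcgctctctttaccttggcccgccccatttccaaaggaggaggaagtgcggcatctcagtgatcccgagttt
Srsf5: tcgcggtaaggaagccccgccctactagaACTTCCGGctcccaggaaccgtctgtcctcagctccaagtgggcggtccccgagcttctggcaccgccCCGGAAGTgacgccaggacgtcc
Hnrnpu: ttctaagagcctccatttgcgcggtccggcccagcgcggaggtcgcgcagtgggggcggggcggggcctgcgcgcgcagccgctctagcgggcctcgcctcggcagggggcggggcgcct
Srsf12: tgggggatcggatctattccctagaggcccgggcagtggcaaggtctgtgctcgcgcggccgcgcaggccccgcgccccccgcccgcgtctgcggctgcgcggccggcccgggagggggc
Hnrnpul1: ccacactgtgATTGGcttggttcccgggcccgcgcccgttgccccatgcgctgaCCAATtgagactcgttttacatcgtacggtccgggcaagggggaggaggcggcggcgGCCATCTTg

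Hnrnph2 and Hnrnpul1, which lay at opposite ends by their chosen probes, each held 2 CCAAT boxes in this window. The other Hnrnpul1 probe was lower on the knockout arrays, with separate arrays (log2 fold change -0.31). Srsf5 held 2 ETS motifs, and no searched motif was present in the windows of Prpf4, Hnrnpu and Srsf12.

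PRPF genes encode proteins of the U1 particle, the tri-snRNP and the later catalytic complexes. Prpf4, a U4/U6 protein, stood at -4.56 and -4.22 on the knockout arrays, against -3.25 and -3.35 on the controls, and its log2 fold change was -1.09 (2.13-fold lower; 95% interval -1.88 to -0.30 with n = 2 arrays in each group). Both knockout arrays were below both controls, on a dim probe whose intensity was 46.3 and 90.7 on the knockout arrays, against 167 and 150 on the controls. Adding an offset of 50 brought the log2 fold change to -0.65. The 90.7 of knockout replicate 2 was just above that array's detection limit of 87.3. With 1 probe for the gene, the size of this difference is uncertain.

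Among tri-snRNP proteins, the arrays of Prpf6 and Prpf31 separated and those of Prpf8 and Prpf3 overlapped. Prpf6, which bridges U5 with U4/U6, stood at 0.92 and 1.0 on the knockout arrays, against 1.54 and 1.38 on the controls (log2 fold change -0.50, interval -1.22 to 0.22). Prpf31, a U4 protein, stood at 1.42 and 1.56 on the knockout arrays, against 2.07 and 1.88 on the controls (log2 fold change -0.49, interval -1.23 to 0.25). In each, the knockout arrays lay below the controls by more than the gap within either group. The other Prpf31 probe gave a log2 fold change of -0.06. Prpf8, the scaffold of the catalytic centre, overlapped, with 2.33 and 2.32 on the knockout arrays, against 2.55 and 2.33 on the controls (log2 fold change -0.11, interval -0.85 to 0.62). Prpf3, the class member of highest mean signal, had a log2 fold change of -0.15 with overlapping arrays. The 2 genes that were higher, Prpf38a and Prpf19, named here after their values were seen, had log2 fold changes of 0.19 and 0.20. They had 0.19 and 0.21 after quantile normalization and 0.25 for both with cyclic loess. With arrays centred on their medians both were below 0, at -0.03 and -0.02. The arrays of Prpf19 overlapped, while those of Prpf38a did not.

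**Figure D4:**
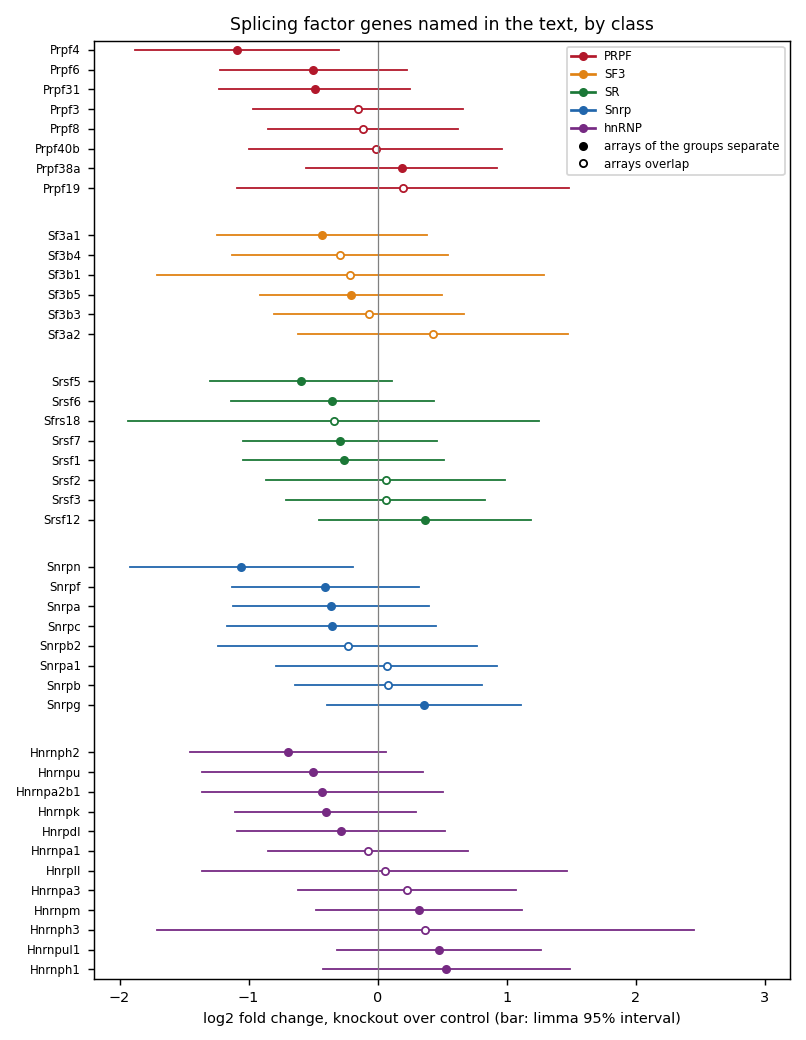
Log2 fold change, knockout over control, of the splicing genes named in the text, by class (rows), with limma 95% intervals as bars; filled points mark genes whose arrays did not overlap between the groups and open points those that did. Only the bars of Prpf4 and Snrpn miss 0.

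SF3 genes encode the SF3A and SF3B subunits of the U2 particle, which hold the branch point. Sf3a1 stood at -0.36 and -0.31 on the knockout arrays, against 0.29 and -0.11 on the controls (log2 fold change -0.43, interval -1.25 to 0.38). Its arrays were separate, and so were those of Sf3b5, at 2.20 and 2.17 on the knockout arrays, against 2.44 and 2.35 on the controls (log2 fold change -0.21). Sf3b1, the branch point protein, stood at -2.19 and -3.45 on the knockout arrays, against -2.47 and -2.75 on the controls, so the knockout arrays lay on both sides of the controls (log2 fold change -0.21, interval -1.71 to 1.29). Sf3b4, which also contacts the branch region, had a log2 fold change of -0.29 with overlapping arrays, and Sf3b3, the brightest of the class, one of -0.07. Their other probes gave -0.35 for Sf3b4 and 0.21 for Sf3b3, both with separate arrays. Sf3a2 was the class member that was higher by the chosen probe, at 0.78 and 1.47 on the knockout arrays, against 0.55 and 0.85 on the controls (log2 fold change 0.43), with overlap.

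SR proteins bind exons through RNA recognition motifs and recruit the U1 and U2 machinery through an arginine- and serine-rich domain. Srsf5 stood at 1.69 and 1.66 on the knockout arrays, against 2.30 and 2.22 on the controls (log2 fold change -0.59, 95% interval -1.30 to 0.11; 1.51-fold lower). Srsf6 stood at 1.24 and 0.99 on the knockout arrays, against 1.59 and 1.35 on the controls (log2 fold change -0.35), and Srsf7 at 2.44 and 2.31 on the knockout arrays, against 2.78 and 2.55 on the controls (-0.29). Arrays of the groups did not overlap for any of these. Srsf1, the founding member of the family, stood at 3.42 and 3.36 on the knockout arrays, against 3.81 and 3.49 on the controls (log2 fold change -0.26). The other Srsf1 probes gave -0.77, with separate arrays, and 0.09. Srsf2 stood at 3.47 and 3.02 on the knockout arrays, against 3.37 and 2.99 on the controls (log2 fold change 0.06, interval -0.87 to 0.99), and Srsf3 had a log2 fold change of 0.06. The other Srsf2 probes gave -0.55, with separate arrays, and -0.14, and the other Srsf3 probes gave -0.43, with separate arrays, and 0.16. The chosen probes overlapped, and both were below 0 under quantile normalization, cyclic loess and median centring. Srsf12 had separate arrays in the other direction, at -2.59 and -2.21 on the knockout arrays, against -2.69 and -2.85 on the controls (log2 fold change 0.37).

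Snrp genes encode the Sm ring, which encircles the small nuclear RNAs, and proteins particular to the U1 or U2 particle. The median log2 fold change was 0.07 over the 8 Sm genes, with 3 lower, and -0.29 over the 4 U1 or U2 genes (Snrpa, Snrpa1, Snrpb2 and Snrpc), with 3 lower, and no test was made of this difference. Snrpf, a ring protein, stood at 2.10 and 2.10 on the knockout arrays, against 2.59 and 2.42 on the controls (log2 fold change -0.41, interval -1.13 to 0.32). Snrpg, another ring protein, stood at 4.75 and 4.64 on the knockout arrays, against 4.45 and 4.22 on the controls (log2 fold change 0.36, interval -0.39 to 1.11), while its other probe gave -0.06. Snrpb had a log2 fold change of 0.08 with overlapping arrays. Snrpa, a U1 protein, stood at 1.14 and 1.42 on the knockout arrays, against 1.66 and 1.62 on the controls (log2 fold change -0.36).

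Snrpn, which encodes the neuronal form of the SmB protein and is imprinted, depended on the probe. Its chosen probe stood at -4.37 and -4.48 on the knockout arrays, against -3.61 and -3.13 on the controls (log2 fold change -1.06, 95% interval -1.92 to -0.19). It was below the detection limit on knockout replicate 2, with an intensity of 75.6 against a limit of 87.3, so the size of this difference is uncertain. Another kept probe of nearly the same mean signal stood at -3.71 and -4.26 on the knockout arrays, against -4.21 and -3.42 on the controls, with overlap (log2 fold change -0.17). Averaged over these probes the log2 fold change was -0.61, and its remaining probe was below the filter.

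hnRNP proteins coat nascent transcripts and often repress splice sites. Hnrnph2, which binds G-rich runs, stood at -0.13 and -0.37 on the knockout arrays, against 0.53 and 0.37 on the controls (log2 fold change -0.70, interval -1.46 to 0.06; 1.62-fold lower). Hnrnpu, a nuclear matrix-associated protein, stood at 3.17 and 2.78 on the knockout arrays, against 3.61 and 3.35 on the controls (log2 fold change -0.50, interval -1.36 to 0.35). Hnrnpk, which binds C-rich runs, stood at 4.38 and 4.37 on the knockout arrays, against 4.77 and 4.78 on the controls (log2 fold change -0.40, interval -1.10 to 0.30). Arrays separated for each of these, and the replicates of Hnrnpk nearly coincided in either group. The 3 Hnrnpk probes gave log2 fold changes from -0.40 to -0.33. Hnrnpa1, a repressor of many exons, overlapped, at 4.13 and 3.98 on the knockout arrays, against 4.28 and 3.99 on the controls (log2 fold change -0.07). The other Hnrnpa1 probe gave -0.40, with separate arrays. Hnrnpul1 was higher by its chosen probe, at 2.70 and 2.88 on the knockout arrays, against 2.46 and 2.15 on the controls (log2 fold change 0.48, interval -0.32 to 1.27). Its other probe gave -0.31, with separate arrays in the opposite direction. Hnrnph1, the close paralogue of Hnrnph2 and named after its values were seen, stood at 4.85 and 4.30 on the knockout arrays, against 4.20 and 3.89 on the controls (log2 fold change 0.53, interval -0.42 to 1.49).

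How far the levels hold across probes could be read from the 47 kept probes that were not chosen. Of these, 38 were lower on the knockout arrays (80.9%), with a median log2 fold change of -0.32. Over all kept probes 44.2% were lower and the median was 0.09. By class, 14 of 17 hnRNP, 11 of 14 SR, 6 of 8 Snrp, 5 of 5 PRPF and 2 of 3 SF3 probes were lower, with medians of -0.33, -0.43, -0.09, -0.23 and -0.35 in that order. These probes share the arrays and the RNA with the chosen ones and are not separate evidence. Probes of a gene differed in direction for 13 of the 35 genes with several kept probes (37.1%), against 40.6% of all such genes. The chosen Snrpc probe, named after its values were seen, gave -0.36 and the other 1.23, which stood at -0.59 and -0.06 on the knockout arrays, against -1.52 and -1.58 on the controls. The Hnrnpa2b1 probes gave -0.43 and 0.65. Hnrnpa3 had 7 probes, of which 6 were lower, with log2 fold changes from -0.78 to 0.23 and the highest from the chosen one.

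**Figure D5:**
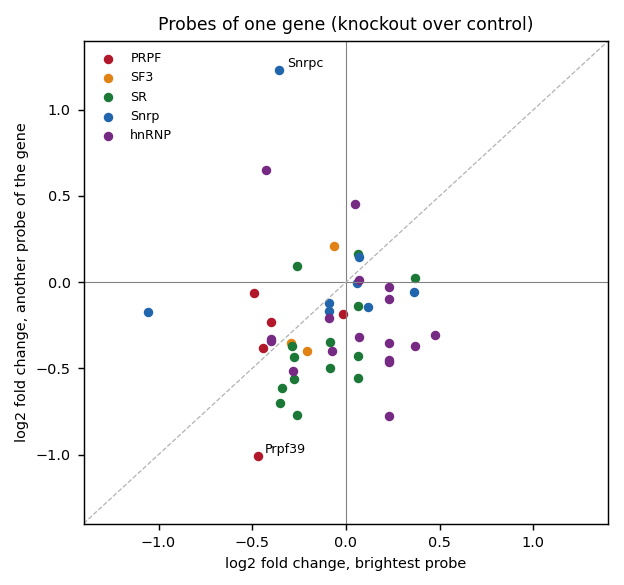
Log2 fold change, knockout over control, of each further kept probe (y axis) against that of the brightest probe of the same splicing gene (x axis), coloured by class. Most further probes lie below 0 (38 of 47, or 80.9%, against 44.2% of all kept probes), and Snrpc stands apart at -0.36 against 1.23.

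The authors' deposited table, whose headers name no adjustment of its p-values, gives p under 0.05 for 8 of the chosen probes, all of them down, and for 0 up, where it lists 3.01% of all genes down and 3.29% up. In the authors' deposited table the smallest is that of Hnrnpk, with p = 1.87e-04 and a ratio of 1.32, and Srsf5 follows with p = 0.00505 and a ratio of 1.51. Prpf4, Prpf6, Hnrnph2, Snrpf and Sf3b5 are also among them in the authors' deposited table. The deposited p-values describe the same arrays. The per-probe equal-variance test above gave nearly the same counts, 8 lower and 0 higher, where 3.03% of all genes were lower and 3.28% higher. The deposited p-values are therefore not separate evidence. In the fit over all probes, where the spread is shared, limma gave Hnrnpk an unadjusted p of 0.184 and an adjusted p of 0.780.

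Other proteins of the splicing pathway and related proteins were read in the same way, from 10 lists with 167 measured genes. Their pooled median log2 fold change was -0.14, with 115 of 167 lower (68.9%). Of all genes 47.9% were lower, and of those above the scaling percentile 59.7%, and the counts of each list are to be read beside these shares. In limma 0 passed an adjusted p under 0.05. At an unadjusted p under 0.05 with limma, 2 of 167 (Aqr and Magohb) were lower, where 1.20% of all genes were. At that level 0 were higher, where 3.51% of all genes were. The exon junction complex marks spliced mRNA. Its list, which also holds the mRNA decay factors Upf1, Upf2, Upf3a and Upf3b, had 9 of 9 genes lower and a median of -0.38. Magohb, a member of the complex, stood at -0.19 and -0.34 on the knockout arrays, against 0.74 and 0.37 on the controls (log2 fold change -0.82). Spliceosomal helicases had 8 of 10 lower and a median of -0.26, with the disassembly helicase Dhx15 at 0.19 and -0.28 on the knockout arrays, against 0.92 and 0.65 on the controls (log2 fold change -0.83). The PRP19 complex and step factors had 19 of 23 lower and a median of -0.18, led by the helicase Aqr at -1.63 and -1.65 on the knockout arrays, against -0.67 and -0.85 on the controls (log2 fold change -0.88, interval -1.61 to -0.16).

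U2AF and branch point factors had 8 of 12 lower and a median of -0.16. U2af1, which reads the 3′ splice site, stood at 3.06 and 3.01 on the knockout arrays, against 3.38 and 3.34 on the controls (log2 fold change -0.32, interval -1.03 to 0.38). U2af2, its partner, had a log2 fold change of -0.24, and Zrsr2, which serves the minor spliceosome, one of 0.36 with overlapping arrays. Regulators outside the families above had 27 of 40 lower (median -0.16), and SR-related coactivators 11 of 17 (-0.09). Genes of snRNP assembly, those of the SMN complex among them, had 10 of 14 lower (-0.12). Other U1, U4/U6.U5 and Snrnp-named genes, minor spliceosome genes among them, had 13 of 22 lower (-0.04). LSm genes, which do not all act in splicing, had 7 of 13 lower (-0.03). The SR protein kinases, which phosphorylate SR proteins, had 3 of 7 lower and a median of 0.14. Clk2 was higher there (log2 fold change 0.69) and Clk4 lower (-0.58).

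Markers of several other blood cell types were higher on the knockout arrays, and 0 markers of any list had an adjusted p under 0.05 with limma. Neutrophil and precursor markers were higher for 25 of 25 genes (median log2 fold change 1.56), with summed linear levels of 223 and 205 on the knockout arrays, against 103 and 118 on the controls. B-lineage markers were higher for 15 of 15 measured genes (median 1.08), with sums of 45.4 and 46.9 on the knockout arrays, against 30.8 and 38.2 on the controls. These sums rest mostly on the brightest probe, that of Cd22, named after its values were seen. Cd22 stood at 5.00 and 5.23 on the knockout arrays, against 4.63 and 5.01 on the controls, with overlap (log2 fold change 0.30). T and NK markers were higher for 13 of 14 (median 0.63), and 10 of 13 erythroid markers were lower (median -0.11). Monocyte and macrophage markers were higher for 8 of 12 (median 0.20), and megakaryocyte markers were lower for 5 of 10 (median 0.09). At an unadjusted p under 0.05 with limma, 20 neutrophil, 8 B-lineage and 3 T and NK markers were higher, where 3.51% of all genes were. In the other lists 0 markers were higher at that level. Mmp9, Ms4a1, Cd5 and Cd8b1 passed the detection filter only through the knockout arrays, where they are higher. Slamf1, an LSK marker, passed only through the controls, where it is higher. The place of these genes in the counts given here supports nothing. LSK stem and progenitor markers were lower for 16 of 18 (median -0.27), with sums of 90.1 and 73.1 on the knockout arrays, against 108 and 85.6 on the controls. Of all 19287 genes, 9240 were lower (47.9%) and 10047 higher, and of those above the scaling percentile 59.7% were lower. Fewer cells of a type and less RNA per cell cannot be told apart in such samples, and the part of these markers in the splicing values was not tested.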

How the data were processed

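Groups and replicate numbers came from the sample titles. The authors deposited a table of probe intensity on a linear scale. The submitters' processing notes name Agilent Feature Extraction, with no version. A comparison table that the authors deposited gives a ratio, a direction, a gene symbol and a p-value per probe. The test behind the deposited p-value is not named in the file headers. The intensity table holds no flags, background columns or control spots. A deposited table of log2 values was not used by name, because its probe names did not match those of the intensities.

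Intensities under 1 were set to 1, log2 was taken of the deposited values and the 75th percentile of the same array was taken off. The filter kept 43759 of 55677 probes, those that exceeded the array's 20th percentile on both arrays of either group. The comparison used lmFit and eBayes of limma 3.58.1 under R 4.3.3 (two-sided, no block, 2 residual and 1.78 prior degrees of freedom), with Benjamini-Hochberg adjustment over the kept probes and a threshold of 0.05. The fit was tested on simulated arrays. With 2 arrays per group, their number limits the precision.

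Each gene was read through 1 kept probe, that of highest mean log2 signal. Classes and lists were described by counts and medians beside all genes. The members and lists were chosen with earlier results of these data known. The rule for named genes took, per class, the gene of highest mean signal and up to 4 with the smallest unadjusted p, with Sf3b1, Srsf1, Srsf2, Srsf3, Snrpn, Snrpb, Prpf8, Hnrnpa1, Hnrnpk and Hnrnpu always. From other splicing lists it took up to 2 genes, with U2af1, U2af2 and Zrsr2 always, and from cell type lists up to 3, with Kit and Ly6a always; not all are printed, and 1 gene that the rule takes is not reported here. Alternatives were quantile normalization, cyclic loess, median centring, an offset of 50, no filter, a filter at the 40th percentile, a replicate block, each array left out, the mean over a gene's probes and a per-probe equal-variance test.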

Additional observations from a re-analysis of the deposited data

How the results depend on the processing

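The count of probes and of splicing genes with an adjusted p under 0.05 was 0 under every alternative run. The fit with the replicate block also gave 0, with the same medians and 4 splicing genes lower and 0 higher at an unadjusted p under 0.05, where 4.33% of all genes were lower and 14.2% higher; same-numbered arrays deviated together (r = 0.69 over probes, 2 pairs), but the labels do not say what they share. The median log2 fold change of all genes was 0.03, and it was -0.10 after quantile normalization, -0.04 with cyclic loess and -0.19 with arrays centred on their medians. With that centring, the class medians were -0.62 (PRPF), -0.41 (SF3), -0.46 (SR), -0.24 (Snrp) and -0.23 (hnRNP), the median of all 65 genes was -0.37 and that of the other splicing lists -0.36. Quantile normalization gave -0.23 for Snrp and -0.28 for hnRNP. With 1 array left out at a time, the median ranged from -0.58 to -0.19 for PRPF, from -0.30 to -0.058 for SF3, from -0.41 to -0.05 for SR, from -0.18 to 0.088 for Snrp, from -0.22 to 0.13 for hnRNP, from -0.35 to 0.016 over all 65 genes and from -0.29 to -0.023 for the other splicing lists. Of the 22 genes that were higher, 11 were lower after quantile normalization or cyclic loess and 4 more under median centring alone, which moves every gene by -0.22, and the 7 that stayed higher were Sf3a2, Srsf12, Snrpg, Hnrnpm, Hnrnph1, Hnrnph3 and Hnrnpul1; of the lower genes, Prpf40b turned. The cause was not tested. The deposited log2 table was not run as an alternative, because its names did not match. Dim probes such as those of Prpf4 and Snrpn depend on the offset: with 50 added, Snrpn gave -0.63.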

Other observations

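Several splicing genes share a promoter region with a gene on the other strand. In the RefSeq table of GRCm38.p6, 14 of 56 splicing genes (25%) had a divergent neighbour whose start lay within 500 bases, against 10.9% of all genes. The latter were not limited to genes detected here, and a share among detected genes was not computed. Of the 10 measured neighbours, 3 had a log2 fold change of the same sign as the splicing gene. Neighbours are named here after their values were seen. Cdc26, a subunit of the anaphase-promoting complex that starts 158 bases from Prpf4, stood at -0.87 and -0.43 on the knockout arrays and at -0.01 and 0.05 on the controls (log2 fold change -0.67, 95% interval -1.50 to 0.17), so both genes of the pair were lower. Gla, the lysosomal alpha-galactosidase that starts 174 bases from Hnrnph2, stood at -1.21 and -0.99 on the knockout arrays and at -2.09 and -1.68 on the controls (log2 fold change 0.78, interval -0.06 to 1.63), opposite to Hnrnph2. Tfpt, which starts 56 bases from Prpf31, had a log2 fold change of 0.06.

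The deposited log2 table held values for 16370 of 55677 probes. Each of these agreed within 0.015 with a scaled log2 intensity, but 611 did so under the same probe name, and Pearson's r across probes under the same name was 0.069 to 0.091. The column medians were -2.59 and -2.05 for the knockout arrays and -3.34 and -2.54 for the controls. Under the names of the intensity table, ribosomal protein probes had a median of 4.31 and olfactory receptor probes one of -5.62. Under the names of the log2 table the medians were -2.37 and -3.35.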
